A study of Homo sapiens with 10 samples.

Results

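Cyclic AMP (cAMP) signalling was described here through 43 genes that make, break down, bind or anchor the components of this pathway, chosen by gene symbol and function. The choice was made with earlier results of these data known. A gene was measured where the platform annotation gave a probe set (the array's unit for a gene's transcript) that symbol alone, with the brightest one to be taken where there were several. Of the 43 genes, 35 had such a probe set, 1 each, among 14232 named genes in all. The data were Affymetrix exon arrays of SH-SY5Y, an established line derived from a human neuroblastoma. There were 5 arrays of cells stably transfected with SOD1(G93A), a mutant superoxide dismutase of familial amyotrophic lateral sclerosis (ALS), and 5 arrays of cells stably transfected with wild-type SOD1. Both lines carried their own endogenous SOD1 and were kept in G418, which selects for the transfected DNA. An untransfected line was not analysed here. The sources used here say neither if a line was a single clone or pooled cells nor if its arrays were separate cultures. The spread behind each p-value is thus that of these arrays and may be technical, and the effect of the construct and other differences between the lines cannot be told apart.

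Adenylyl cyclases form cAMP from ATP when stimulatory G proteins, and for some isoforms calcium, activate them, and inhibitory G proteins oppose this. Phosphodiesterases (PDEs) hydrolyse cAMP, cyclic GMP (cGMP) or both, and their location in the cell keeps cAMP signals local. cAMP acts on protein kinase A (PKA), which A-kinase anchoring proteins (AKAPs) hold near its substrates, and on the exchange factors Epac. PKA phosphorylates transcription factors of the CREB family, which bind the cAMP response element (CRE) of many promoters. In neuroblastoma cells, raised cAMP is known to slow division and to promote neurite outgrowth.

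The values were log2 intensities, so a difference of 1 is a 2-fold change. They were deposited after RMA, a procedure that makes the arrays' distributions alike, and carry no detection calls. Array medians lay between 6.26 and 6.34 and lower quartiles between 3.84 and 3.89. Pearson correlations over all probe sets were 0.990 to 0.994 within groups and 0.986 to 0.990 between groups. On principal components 2 and 3, SOD1(G93A) sample 18 and wild-type sample 17 stood apart from the other arrays of their lines. SOD1 itself averaged 9.55 ± 0.09 with SOD1(G93A) and 9.78 ± 0.13 with wild-type SOD1 (SD, n = 5 each). Its probe set may read endogenous and transfected RNA together. The log2 difference was −0.23 (95% interval −0.39 to −0.06, limma unadjusted p = 0.0112), and the groups overlapped. A permutation test of the group labels for SOD1 alone gave p = 0.0159. SOD1 was thus lower on average in the SOD1(G93A) line, but not past the threshold by limma over all probe sets (adjusted p = 0.107). Noradrenergic markers of SH-SY5Y were present. PHOX2A averaged 9.34 with SOD1(G93A) and 9.17 with wild-type SOD1, and GATA3 averaged 9.94 with SOD1(G93A) and 10.32 with wild-type SOD1. Of 9 measured immune and endothelial markers, limma called 0 and gave 0 an unadjusted p under 0.05. Of these markers 4, among them PTPRC and PECAM1, lay below the lower quartile on every array.

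Among the 43 genes, the largest differences measured lay in phosphodiesterases, and they went in opposite directions. PDE3A, which hydrolyses cAMP and is inhibited by cGMP, was 2.40-fold higher in the SOD1(G93A) line. PDE7B, a cAMP-specific enzyme with high affinity, fell to 44.2% of its wild-type level. PDE4D, a cAMP-specific enzyme of the rolipram-sensitive class, fell to 66.5% of its wild-type level. Smaller falls were found for the adenylyl cyclases ADCY9 and ADCY8, and both calls were lost in most fits that left 1 array out. No PKA subunit, anchoring protein, CREB family factor or other effector passed the threshold. The threshold was a Benjamini-Hochberg adjusted p of 0.05 or less by limma over all 22011 probe sets.

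In counts, 1 of the 35 measured members rose and 4 fell, or 14.3% called. Among all named genes 9.6% were called, 4.03% higher and 5.57% lower. Over all probe sets, named or not, 7.46% were called, 3.24% higher and 4.23% lower, with 18.6% at an unadjusted p under 0.05. No test of the members as a group was made, and these counts do not set them apart from other genes. Their median difference was −0.06, against −0.0043 over all named genes. The 35 members had a median within-group SD of 0.10, against 0.12 over all named genes, and ranged from 0.05 for ADCY2 to 0.30 for AKAP6. PDE3A and PDE7B also changed at least 2-fold, the added condition of the labels, which 1.18% of all named genes and 0.872% of all probe sets met. The groups did not overlap in 6 members, the 5 called ones and ADCY7, against 11.4% of all named genes and 8.88% of all probe sets.

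**Figure D1:**
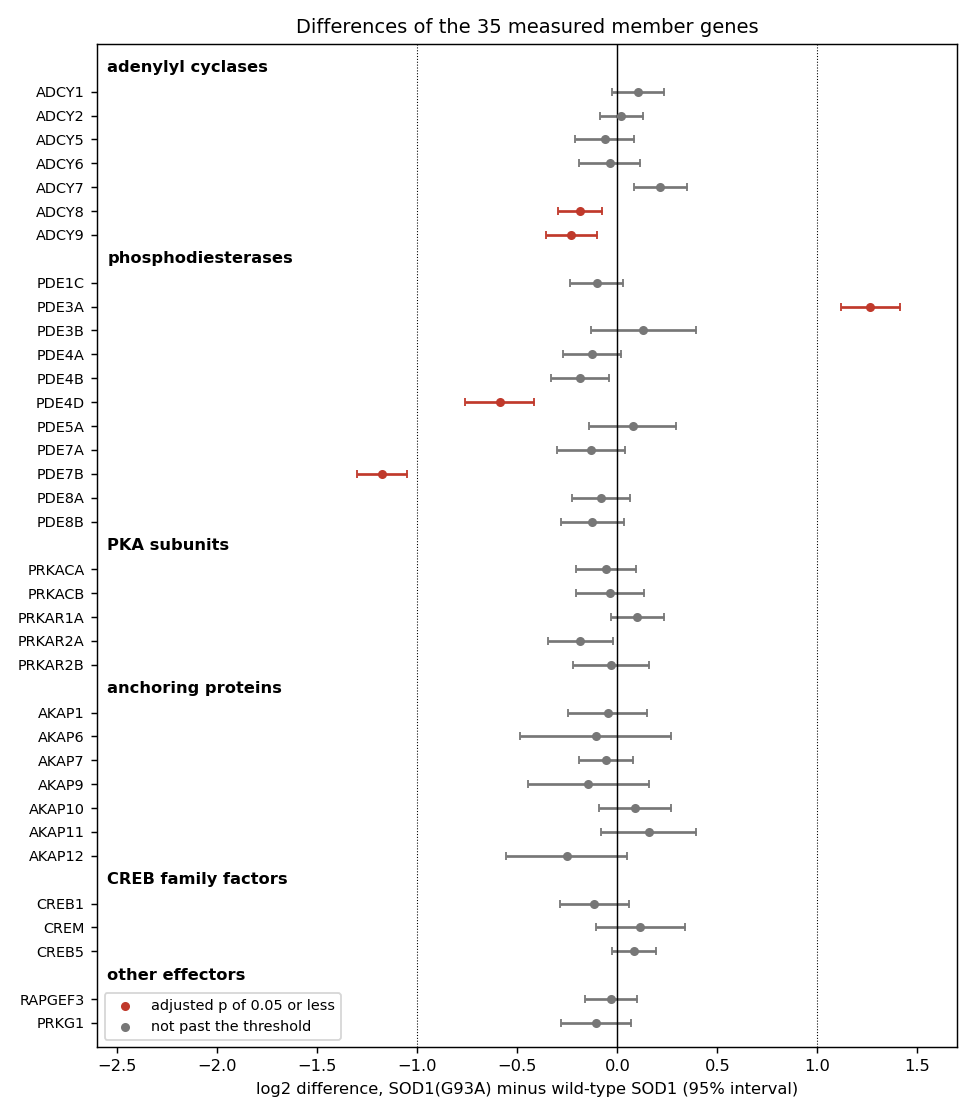
Log2 difference (SOD1(G93A) minus wild-type SOD1, horizontal axis) with its 95% interval for each of the 35 measured members, grouped by role, with red marking an adjusted p of 0.05 or less and dotted lines at a 2-fold change. PDE3A at 1.27 and PDE7B at −1.18 lie past the dotted lines, PDE4D stands at −0.59, and the other members lie from −0.25 to 0.22.

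PDE3A had log2 levels of 9.44, 9.48, 9.45, 9.55 and 9.61 in SOD1(G93A) samples 3, 9, 12, 15 and 18, against 8.42, 8.12, 8.18, 8.22 and 8.27 in wild-type samples 2, 8, 11, 14 and 17. Every SOD1(G93A) array lay above every wild-type array, and 1.02 log2 units separated the closest arrays of the groups. The means were 9.51 ± 0.07 with SOD1(G93A) and 8.24 ± 0.11 with wild-type SOD1 (SD, n = 5 each), a log2 fold change of 1.27 (SE 0.07, 95% interval 1.12 to 1.41, limma adjusted p = 7.6e-07). PDE3A was bright on these arrays, above 85.6% of the probe sets by its mean. Its relative PDE3B, which acts in insulin signalling in fat and liver cells, differed by 0.13 (95% interval −0.13 to 0.39) and was not past the threshold (adjusted p = 0.653).

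PDE7B had log2 levels of 6.46, 6.47, 6.49, 6.51 and 6.58 in the SOD1(G93A) samples, in the order of sample number, against 7.70, 7.59, 7.75, 7.78 and 7.59 in the wild-type samples. The SOD1(G93A) arrays were all lower, and their spread was among the smallest of the members (SD 0.05, against 0.09 in wild-type arrays). The log2 fold change was −1.18 (SE 0.06, 95% interval −1.30 to −1.05, limma adjusted p = 3.62e-07). Its relative PDE7A, also cAMP-specific, differed by −0.13 (95% interval −0.30 to 0.04, adjusted p = 0.407).

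PDE4D had log2 levels of 5.92, 5.95, 6.09, 6.09 and 5.95 in the SOD1(G93A) samples, against 6.63, 6.51, 6.65, 6.77 and 6.38 in the wild-type samples. The groups were separated by 0.28, and wild-type sample 17 was the wild-type array nearest to the SOD1(G93A) ones. The log2 fold change was −0.59 (SE 0.08, 95% interval −0.76 to −0.42, limma adjusted p = 0.000748). PDE4D makes many isoforms from several promoters, and a gene-level value cannot tell them apart. The other measured genes of that class, PDE4B and PDE4A, differed by −0.19 (SE 0.07, adjusted p = 0.139) and −0.13 (SE 0.06, adjusted p = 0.339).

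**Figure D2:**
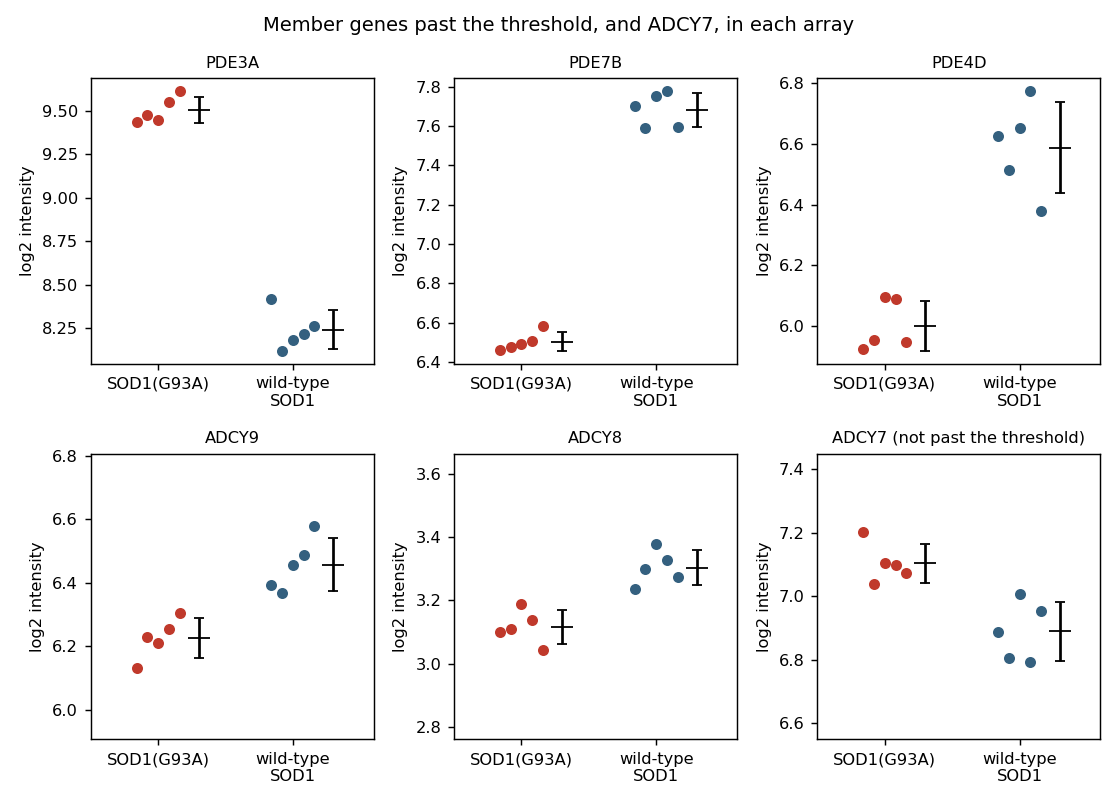
Log2 intensity (vertical axes, which differ in range) of the 5 called members and of ADCY7 in each array, SOD1(G93A) in red and wild-type SOD1 in blue, with the mean and SD of each group in black. PDE3A and PDE7B leave gaps of 1.02 and 1.01 between the groups, PDE4D 0.28, and the 3 cyclases at most 0.06.

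The levels of related enzymes can also be set against each other within each array, here for 4 pairs picked with these values known, so the differences are given as a description with no test. The level of PDE3A minus that of PDE3B averaged 2.80 ± 0.06 in SOD1(G93A) arrays and 1.66 ± 0.16 in wild-type arrays (SD, n = 5 each). The level of PDE7B minus that of PDE7A averaged −0.01 ± 0.05 in SOD1(G93A) arrays and 1.03 ± 0.08 in wild-type arrays. The level of PDE4D minus that of PDE4A averaged 0.22 ± 0.09 in SOD1(G93A) arrays and 0.68 ± 0.21 in wild-type arrays. Against PDE4B the PDE4D difference averaged −0.97 ± 0.14 in SOD1(G93A) arrays and −0.57 ± 0.19 in wild-type arrays. These are differences of log2 intensities of separate probe sets, so their change between the lines can be read and their size within a line cannot.

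To show a sequence context of the genes with the largest changes, the 250 bases before an annotated start of PDE7B (chr6:135851451-135851700, plus strand) and of PDE3A (chr12:20571829-20572078, plus strand) are given from RefSeq, build GRCh38.p14. Whether these are the main starts of the genes, or the starts used in these cells, was not checked. Those of CREM (chr10:35195652-35195901, plus strand) and PRKAR1A (chr17:68512180-68512429, plus strand), which did not pass the threshold, are shown because they hold the same element as PDE7B. Capitals mark the palindromic CRE, and all other bases are in lower case.
PDE7B: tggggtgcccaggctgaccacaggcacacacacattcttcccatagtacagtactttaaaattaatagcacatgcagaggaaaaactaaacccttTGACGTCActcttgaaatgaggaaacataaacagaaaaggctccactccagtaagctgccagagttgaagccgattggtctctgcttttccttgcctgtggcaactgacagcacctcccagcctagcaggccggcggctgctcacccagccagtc
PDE3A: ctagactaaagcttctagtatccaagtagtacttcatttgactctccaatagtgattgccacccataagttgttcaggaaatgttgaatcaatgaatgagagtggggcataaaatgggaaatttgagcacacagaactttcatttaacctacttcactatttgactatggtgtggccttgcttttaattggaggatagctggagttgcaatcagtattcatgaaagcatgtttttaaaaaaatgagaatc
CREM: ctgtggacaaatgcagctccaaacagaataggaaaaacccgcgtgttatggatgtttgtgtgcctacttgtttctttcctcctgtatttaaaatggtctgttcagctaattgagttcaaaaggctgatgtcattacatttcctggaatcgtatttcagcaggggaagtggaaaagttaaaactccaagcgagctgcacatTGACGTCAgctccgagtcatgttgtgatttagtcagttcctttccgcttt
PRKAR1A: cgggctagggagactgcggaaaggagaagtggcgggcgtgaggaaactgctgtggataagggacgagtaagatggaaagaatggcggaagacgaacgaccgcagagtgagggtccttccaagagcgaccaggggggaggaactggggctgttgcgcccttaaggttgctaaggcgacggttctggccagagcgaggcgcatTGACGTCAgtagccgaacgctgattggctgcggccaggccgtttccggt

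The search was for TGACGTCA, which reads the same on both strands, and for its shorter forms TGACG and CGTCA, which the full element also contains, on both strands, in windows of 300 bases from 250 before to 50 after each annotated start. PDE7B, which fell, held the full element 155 bases before its only annotated start in the table. PDE3A, which rose, held neither the full element nor a shorter form in the only window the table gave for it. That window may not lie at its main start, so nothing is said here of its main promoter. Of 8 PDE4D windows 0 held the full element and 1 held a shorter form. The full element also stood 50 bases before a CREM start, 49 bases before a PRKAR1A start and across a PDE4A start. Among the 30 members found in the table, 4 held it in at least 1 window (13.3%), against 2.25% of 27305 genes in all. These shares are not on equal footing, because a gene with more windows has more chances to hold the element. The 30 members had 86 windows, against 35116 for the 27305 genes. By window the share was 6 of 86 (6.98%), some of which overlap, and 26.7% of those windows held the element or a shorter form. The CREM site and the PRKAR1A site were each counted in 2 overlapping windows. Of 35116 windows over all genes, 1.85% held the full element and 24.6% held it or a shorter form. These are matches of letters in a reference sequence. The members that held the element did not share a direction, with PDE7B at −1.18 and PDE4A, PRKAR1A and CREM at −0.13, 0.10 and 0.11, the last 3 not past the threshold.

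The remaining phosphodiesterases did not pass the threshold. PDE8A and PDE8B, cAMP-specific enzymes of high affinity, differed by −0.08 (SE 0.07) and −0.12 (SE 0.07). PDE1C, a calmodulin-activated enzyme of both nucleotides, differed by −0.10 (SE 0.06), and it and PDE8B lay below the lower quartile on every array. PDE5A, which is specific for cGMP, differed by 0.08 (95% interval −0.14 to 0.29). Its level was 5.94 in SOD1(G93A) sample 18, against 5.42 to 5.55 in the other SOD1(G93A) arrays and 5.36 to 5.60 in the wild-type arrays. Without that array the PDE5A difference was −0.01. Of the 8 measured phosphodiesterases that were not called, PDE4B had the lowest adjusted p.

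Among the 7 cyclases, all of them measured, 2 were called lower and 0 higher, or 28.6%. Among all named genes 9.6% were called, 5.57% lower. Of the 10 fits without 1 array, 3 kept the ADCY9 call and 1 the ADCY8 call. These counts thus do not show a direction for the cyclases. ADCY9, a widely expressed isoform that responds poorly to forskolin, had log2 levels of 6.13, 6.23, 6.21, 6.26 and 6.30 in the SOD1(G93A) samples, against 6.39, 6.37, 6.46, 6.49 and 6.58 in the wild-type samples. The groups were 0.06 apart, and the log2 fold change was −0.23 (SE 0.06, 95% interval −0.36 to −0.10, limma adjusted p = 0.0349). Its call was lost without SOD1(G93A) sample 3, 9, 12 or 15 and without wild-type sample 11, 14 or 17 (adjusted p up to 0.0842), and without samples 17 and 18 together (adjusted p = 0.0708).

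ADCY8, a neuronal isoform stimulated by calcium and calmodulin, lay at 3.04 to 3.19 in SOD1(G93A) arrays, against 3.24 to 3.38 in wild-type arrays. All 10 arrays were under the lower quartile, a range where log2 differences are compressed and where the files do not show whether the gene was detected. The log2 fold change was −0.19 (SE 0.05, limma adjusted p = 0.0491). The call was lost in 9 of the 10 fits without 1 array, the exception being SOD1(G93A) sample 12 (adjusted p up to 0.117), and without samples 17 and 18 together (adjusted p = 0.140).

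ADCY7, which is stimulated by G protein beta-gamma subunits, lay just beyond the threshold on the other side. Its levels were 7.20, 7.04, 7.11, 7.10 and 7.07 in the SOD1(G93A) samples, against 6.89, 6.80, 7.01, 6.79 and 6.95 in the wild-type samples. The groups did not overlap, by 0.03, and the log2 difference was 0.22 (SE 0.06, limma adjusted p = 0.0555). It was past the threshold without wild-type sample 11 (adjusted p = 0.043).

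The other cyclases showed small differences. ADCY1, a neuronal isoform that calcium and calmodulin stimulate, differed by 0.10 (95% interval −0.03 to 0.23), with 8.67 to 8.88 in SOD1(G93A) arrays and 8.58 to 8.72 in wild-type arrays. The calcium-inhibited isoforms ADCY5 and ADCY6 differed by −0.06 and −0.04. ADCY2, which lay below the lower quartile on every array, differed by 0.02. The 95% intervals of these 4 genes lay between −0.21 and 0.23.

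PKA is a complex of regulatory and catalytic subunits that cAMP separates. Of 5 measured subunits 0 were called, and 1, PRKAR2A, had an unadjusted p under 0.05. Among all named genes 21.7% had such a p. PRKAR2A, a type II regulatory subunit, had log2 levels of 8.29, 8.23, 8.21, 8.24 and 8.50 in the SOD1(G93A) samples, against 8.42, 8.39, 8.65, 8.47 and 8.46 in the wild-type samples. The groups overlapped through SOD1(G93A) sample 18, and the difference was −0.19 (SE 0.07, adjusted p = 0.192). The type I regulatory subunit PRKAR1A, among the brightest members, differed by 0.10 (SE 0.06), and PRKAR2B, the other type II subunit, by −0.03 (SE 0.09). The catalytic subunits PRKACA and PRKACB differed by −0.06 (SE 0.07) and −0.04 (SE 0.08). Taking all 5 subunits, the 95% intervals lay between −0.35 and 0.23, so a 2-fold change of any of them was outside its interval.

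Of 7 measured anchoring proteins 0 were called and 0 had an unadjusted p under 0.05. AKAP6, AKAP12 and AKAP9 had the widest within-group spread of the 35 members, while AKAP7 varied less than the median member. AKAP12, the scaffold gravin, ranged from 6.61 to 7.20 in SOD1(G93A) arrays and from 6.84 to 7.40 in wild-type arrays, with a difference of −0.25 (SE 0.14, adjusted p = 0.373). AKAP11, which binds type II PKA and protein phosphatases, differed by 0.16 (SE 0.11, adjusted p = 0.510). AKAP6, an anchor of the nuclear envelope in muscle cells and neurons, ranged from 5.01 to 5.55 in SOD1(G93A) arrays and from 5.01 to 5.93 in wild-type arrays. AKAP9, an anchor of the centrosome and Golgi, differed by −0.14 (SE 0.14), AKAP10, a mitochondrial anchor, by 0.09 (SE 0.08), and AKAP1, which binds the outer mitochondrial membrane, by −0.05 (SE 0.09). AKAP7, a membrane-bound anchor, differed by −0.06 and lay below the lower quartile on every array. The intervals of the 7 anchors reached from −0.56 to 0.39, wider than those of the kinase subunits.

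Of 3 measured CREB family factors and 2 other effectors, 0 were called and 0 had an unadjusted p under 0.05. CREB1, the factor that PKA activates by phosphorylation, differed by −0.11 (95% interval −0.29 to 0.06), with 9.69 to 10.02 in SOD1(G93A) arrays and 9.82 to 10.11 in wild-type arrays. CREM, whose short cAMP-inducible form represses CRE promoters, differed by 0.11 (95% interval −0.11 to 0.34). The gene-level value joins all CREM isoforms. CREB5 differed by 0.08 (95% interval −0.03 to 0.19). RAPGEF3, which encodes Epac1, an activator of the small GTPase Rap, differed by −0.03 (SE 0.06), and PRKG1, a cGMP-dependent kinase, by −0.11 (SE 0.08).

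The 8 listed genes without a probe set of their own were not measured by the rule. PDE1A, PRKAR1B, ATF1 and RAPGEF4 had no probe set with their symbol. PDE2A, PDE4C, PDE10A and AKAP13 each shared one with another gene, so its value cannot be given to either. Of these 4 shared probe sets, the one annotated to PDE10A and LINC00473 was past the threshold. Its levels were 7.35, 7.51, 7.35, 7.32 and 7.42 in the SOD1(G93A) samples, against 6.87, 6.97, 6.96, 6.89 and 6.83 in the wild-type samples, a difference of 0.49 (SE 0.05, limma adjusted p = 0.000222).

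The rest of the pathway was described through 11 lists with 199 measured genes besides the members, RGS2 being in a pair of lists. In all, 12 rose and 18 fell, or 15.1% called, against 9.6% of all named genes. The lists were written with earlier results of these data known, so these shares are a description only. Among the few phosphodiesterases, cyclases, anchors and PKA-related genes not in the main set, 8, 2, 9 and 5 were measured and 2 were called, both lower. PDE9A, a cGMP-specific enzyme, had log2 levels of 6.88, 6.79, 6.87, 6.96 and 6.74 in the SOD1(G93A) samples, against 7.30, 7.38, 7.48, 7.35 and 7.58 in the wild-type samples. It fell by 0.57 (SE 0.07, limma adjusted p = 0.000386). MAP2, a microtubule protein of dendrites that binds type II PKA, fell by 0.67 (SE 0.10). Of 18 coactivators and other CREB or ATF factors 1 fell, CREB3L4, by 0.26 (SE 0.07), and its call was lost in all fits without 1 array but those without SOD1(G93A) sample 3 or wild-type sample 8 (adjusted p up to 0.106).

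**Figure D3:**
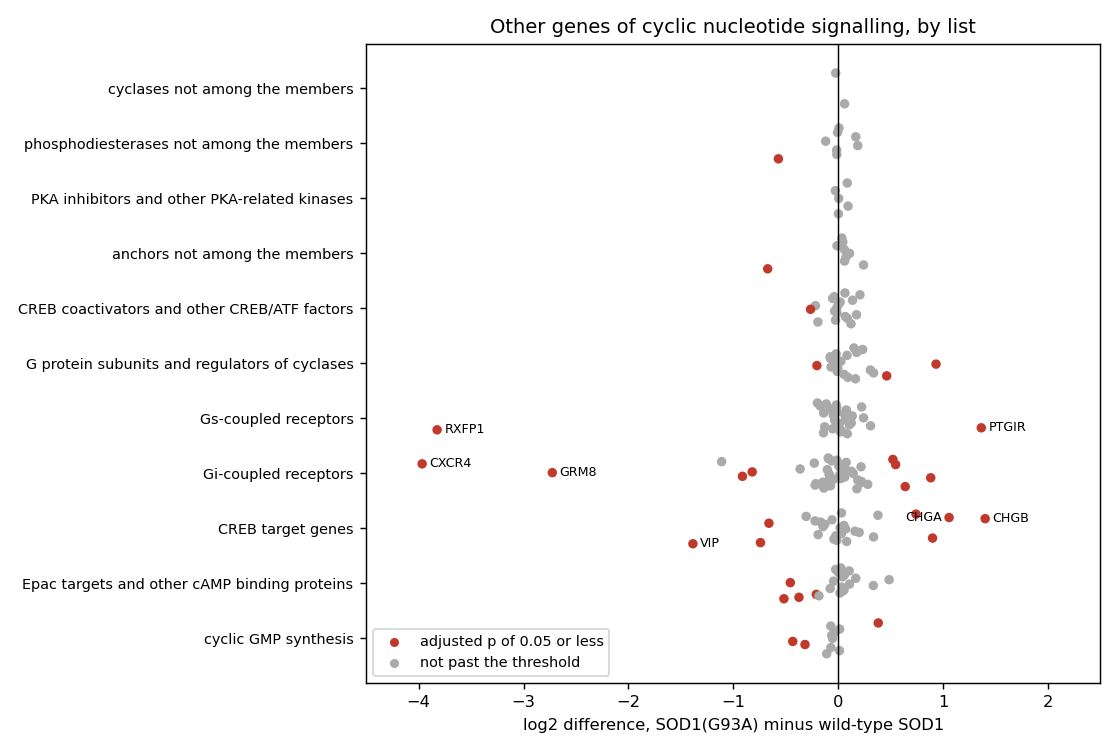
Log2 difference (SOD1(G93A) minus wild-type SOD1, horizontal axis) of each gene in the 11 lists, with red marking an adjusted p of 0.05 or less and names given where a called gene changed more than 2-fold. The receptors RXFP1, CXCR4 and GRM8 lie far to the left at −3.82, −3.97 and −2.73, while the G protein, coactivator and cyclase lists stay within 1 unit of 0.

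Among 22 G protein subunits and regulators, 2 rose and 1 fell, or 13.6% called, against 9.6% of all named genes. GNG2, a gamma subunit, had log2 levels of 10.57, 10.44, 10.44, 10.50 and 10.44 in the SOD1(G93A) samples, against 9.43, 9.62, 9.51, 9.38 and 9.79 in the wild-type samples, and rose by 0.93 (SE 0.08, limma adjusted p = 2.82e-05). RGS4, which speeds the shut-off of inhibitory G proteins, rose by 0.46 (SE 0.08). GNG4, another gamma subunit, fell by 0.20 (SE 0.05), a call kept, of the fits without 1 array, only without wild-type sample 2 (adjusted p up to 0.094). GNAS, the stimulatory alpha subunit, differed by −0.08 and was not past the threshold (adjusted p = 0.574).

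A few receptors upstream of the cyclases were called, in both directions. Of 32 receptors coupled to stimulatory G proteins 1 rose and 1 fell, or 6.25% called, against 9.6% of all named genes. Of the 32, 9 lay below the lower quartile on every array. PTGIR, the prostacyclin receptor, had log2 levels of 6.95, 6.70, 7.04, 6.81 and 6.75 in the SOD1(G93A) samples, against 5.67, 5.63, 5.49, 4.89 and 5.74 in the wild-type samples, and rose by 1.36 (SE 0.15, limma adjusted p = 0.000195). RXFP1, the relaxin receptor, fell by 3.82 (SE 0.08) and lay below the lower quartile on all 5 SOD1(G93A) arrays, so the size of its fall is uncertain. Of 43 receptors coupled to inhibitory G proteins 4 rose and 4 fell, or 18.6% called, and 10 of the 43 lay below the lower quartile on every array. The 3 largest of these changes were falls of the chemokine receptor CXCR4 (3.97), the glutamate receptor GRM8 (2.73) and the serotonin receptor HTR1E (0.91, SE 0.12). CXCR4 on all 5 SOD1(G93A) arrays and GRM8 on 4 of them lay below the lower quartile, so the sizes of these falls are uncertain too. The 4 that rose, named after their values were seen, were LPAR1 (0.88), SSTR2 (0.64), DRD2 (0.55) and ADRA2A (0.52).

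Genes known as CREB targets changed both ways. Of 28 measured, 4 rose and 3 fell, or 25% called. Among all named genes 9.6% were called, 4.03% higher and 5.57% lower. The granin genes CHGB and CHGA, whose products fill secretory granules, rose by 1.40 (SE 0.15) and 1.06 (SE 0.12). VIP, a neuropeptide gene with a classical CRE, had log2 levels of 2.81, 3.13, 3.00, 2.91 and 2.73 in the SOD1(G93A) samples, against 4.58, 4.08, 4.11, 4.44 and 4.29 in the wild-type samples, and fell by 1.39 (SE 0.11, limma adjusted p = 1.86e-05). It ended below the lower quartile, so the size of its fall is uncertain. Named after their values were seen, SCG2 and BDNF rose by 0.90 and 0.74, and VGF and EGR1 fell by 0.74 and 0.66. The immediate early gene FOS differed by −0.13 and was not past the threshold (adjusted p = 0.355). CHGA and CHGB also stood on the list of noradrenergic markers, of whose 9 measured genes 4 rose and 2 fell, or 66.7% called. On that list SLC18A2, a vesicular monoamine transporter picked with its value known, rose by 0.64 (SE 0.08). GATA3 was among the 2 that fell, and the lowest difference on that list was −0.58.

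Of 22 Epac targets and other cAMP binding proteins 0 rose and 4 fell, or 18.2% called, against 9.6% of all named genes. RASGRP1, a Ras activator below the lower quartile on every array, fell by 0.52 (SE 0.09). POPDC3, of the cAMP-binding Popeye family, fell by 0.46 (SE 0.09), and RAPGEF5, a Rap activator, by 0.37 (SE 0.09). The RAPGEF5 call was lost without SOD1(G93A) sample 3, 12 or 18 and without wild-type sample 8, 11 or 14 (adjusted p up to 0.0708). The list took in exchange factors that cAMP does not bind. Of 11 genes of cGMP synthesis 1 rose and 2 fell, or 27.3% called. GUCY1A1, a subunit of the nitric oxide receptor, rose by 0.38 (SE 0.06), and the nitric oxide synthases NOS1 and NOS2 fell by 0.43 (SE 0.06) and 0.32 (SE 0.06), both dim.

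Markers of cell states moved beside these genes, on the noradrenergic list as well as on a mesenchymal one. The mean level of the 9 measured noradrenergic markers ran from 8.93 to 9.10 in SOD1(G93A) arrays and from 8.62 to 8.80 in wild-type arrays. Of 12 mesenchymal, fibroblast and S-type (substrate-adherent neuroblastoma) markers 6 rose and 1 fell, or 58.3% called. Among all named genes 9.6% were called, 4.03% higher and 5.57% lower. The mean level of these 12 markers ran from 6.81 to 6.94 in SOD1(G93A) arrays and from 6.37 to 6.58 in wild-type arrays. The largest of these changes were rises of COL3A1 (2.33, SE 0.11) and DCN (1.34, SE 0.10), both of the extracellular matrix, and a fall of the transcription factor SNAI2 (1.03, SE 0.10), named after their values were seen. COL1A1, a defining fibroblast gene, was not past the threshold (difference 0.14), and 1 of the 12 lay below the lower quartile on every array. In bulk RNA, a change in the share of cells of a kind and a change per cell cannot be told apart. The part of these markers in the PDE3A and PTGIR rises was not tested. S100B, the only one called of 6 measured glial markers (16.7%), rose by 0.73 (SE 0.11).

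The calls of PDE3A, PDE7B and PDE4D were made in all 10 fits without 1 array, without samples 17 and 18 together, and under the 7 other alternatives. Their log2 fold changes then ran from 1.24 to 1.31, from −1.22 to −1.15 and from −0.64 to −0.54. Of the 7, the mean of all probe sets of a gene could not change these values, because each member had only 1 probe set.

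**Figure D4:**
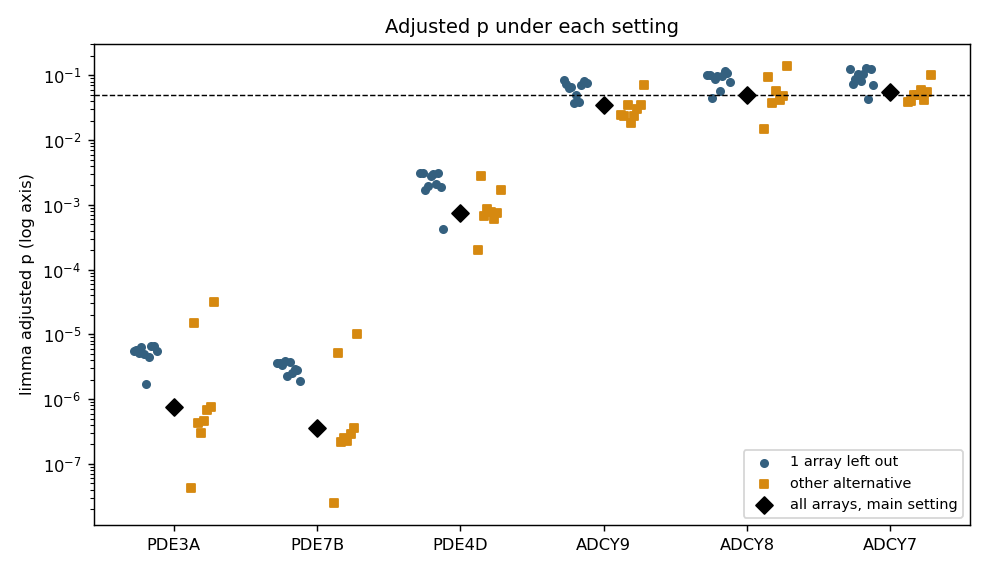
Limma adjusted p (vertical log axis) of the 5 called members and ADCY7 with all arrays (black diamonds), with 1 array left out (blue circles) and under the other alternatives (orange squares), with the threshold of 0.05 as a dashed line. PDE3A, PDE7B and PDE4D stay below the line at every point, while ADCY9, ADCY8 and ADCY7 fall on both sides of it.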

How the data were processed

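Gene-level log2 intensities of 22011 probe sets on 10 arrays were used as deposited; the authors used RMA, per the submitters' processing notes, and the software oneChannelGUI 1.6.5, per the labels. RMA removes shifts shared by all genes and compresses differences of dim probes. Genome build and filters: not given in the sources used here. Precision is limited by the 5 arrays a group.

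Groups came from the sample titles. Of the probe sets, 14432 had 1 gene symbol, 2408 several and 5171 none, and no gene was named from one with several. Symbols of genes outside the main set were updated through RefSeq (28 single-symbol probe sets had no match). Groups were compared 2-sided by lmFit and eBayes of limma 3.58.1 (R 4.3.3), p-values adjusted over the 22011 probe sets by Benjamini and Hochberg, no level filter, and moderated SE and 95% intervals. The method was tested on simulated data with independent arrays, which cannot show whether the arrays used here are independent. Every main gene is accounted for. Per pathway list, up to 3 called genes with the largest change are named; others are named as chosen after their values were seen, or as checks (PHOX2A, GATA3, PTPRC, PECAM1, GNAS, FOS, COL1A1). Members and lists were chosen with earlier results of these data known. Alternatives are in the closing section.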

Additional observations from a re-analysis of the deposited data

Results flagged for a closer look

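Among 112 groups of 5 arrays examined, 3 held an array far from the others; a gap of that size arises by chance in about 1 of 20 groups. PDE5A stood at 5.94 in SOD1(G93A) sample 18, against 5.42 to 5.55 in the other 4. PRKAR2A stood at 8.50 in the same array, against 8.21 to 8.29. PTGIR stood at 4.89 in wild-type sample 14, against 5.49 to 5.74.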

How the results depend on the processing

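No paired analysis was made, because the groups share no sample numbers. The numbers of the lines neighbour each other (3 and 2, 9 and 8, 12 and 11, 15 and 14, 18 and 17, SOD1(G93A) and wild type), but the labels do not say that neighbours share a culture or batch. Samples 17 and 18, which stood apart from the other arrays of their lines, are such neighbours. No fit was made on that order, so what a fit by neighbours would call was not tested. The number of members called was 5 with all arrays, 3 without samples 17 and 18 together (PDE3A, PDE7B and PDE4D), and 3 to 4 with 1 array left out, being 3 without SOD1(G93A) sample 3, 9 or 15 or wild-type sample 14 or 17. Under the other alternatives it was 4 to 6. ADCY7 joined where only probe sets brighter than the median were tested (ADCY8 is not among those), with the unmoderated test, with trended and robust eBayes, and with array weights. ADCY8 dropped out with trended and robust eBayes and with arrays centred on their medians. The number of probe sets called was 1643, and 1267 to 1754 under the alternatives. Of the 199 genes of the pathway lists 30 were called. It was 21 of 81 tested where only probe sets brighter than the median were used, and 26 to 32 of 199 under the other alternatives. Direction reversed only for members not past the threshold. With 1 array left out, ADCY2 ran from −0.0042 to 0.037, ADCY6 from −0.087 to 0.0054, PDE5A from −0.014 to 0.12, PRKAR2B from −0.071 to 0.029, AKAP1 from −0.098 to 0.0031 and AKAP6 from −0.19 to 0.037. PRKAR2B was 0.016 without SOD1(G93A) sample 9, and PDE5A was −0.048 without samples 17 and 18. Fewer arrays were tested in the fits that leave arrays out; the cause of the other changes was not tested.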

Other observations

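Genes next to the called members in RefSeq gene order were looked at after the data were seen, 2 measured genes on each side. Beside PDE7B, MYB, a transcription factor gene, fell by 0.92 (SE 0.08, limma adjusted p = 5.12e-05), while AHI1, which lies between them, differed by −0.19 (adjusted p = 0.220) and MTFR2 and BCLAF1 on the other side by 0.19 and −0.03, none of these 3 past the threshold. Beside PDE3A, PLEKHA5, AEBP2, SLCO1C1 and SLCO1A2 differed by 0.07 to 0.25, and none was past the threshold. Beside PDE4D, DEPDC1B fell by 0.33 (SE 0.08, adjusted p = 0.0258), and the other 3 were not past the threshold. The 4 genes around ADCY9, among them CREBBP, were not past the threshold. Beside ADCY8, ASAP1 rose by 0.32 (SE 0.07, adjusted p = 0.0142) and KCNQ3 fell by 0.58 (SE 0.06, adjusted p = 0.000109), and the other 2 were not past the threshold.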
